A study of Mus musculus with 12 samples.

Results

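The EGF receptor family and its ligands are described here through 10 genes chosen by name, of the 24421 genes in the deposited count table: the receptors Egfr, Erbb2 and Erbb3, the ligands Hbegf, Areg, Ereg, Tgfa, Btc and Nrg1, and the receptor inhibitor Errfi1. All 10 passed the filter on low counts and were tested. RNA-Seq was done on 12 libraries of mouse embryonic fibroblasts (MEFs), 3 in each of 4 groups. Null MEFs, the control genotype, and MEFs in which Tfeb and Tfe3 were both targeted by CRISPR (DKO) were each kept as control or given 100 µM etoposide for 8 h. Etoposide traps topoisomerase II on DNA and leaves strand breaks. The labels call the controls untreated and the study's methods give them DMSO. Each genotype was 1 line, and the study describes the MEFs as immortalized with SV40, so a difference between genotypes cannot be told apart from a difference between lines.

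EGF family ligands are made as membrane proteins, are cut free by proteases at the cell surface, and bind receptors that then pair and phosphorylate each other. Egfr binds Hbegf, Areg, Ereg, Tgfa and Btc, Erbb3 binds the neuregulin Nrg1, and Erbb2 binds no ligand but pairs with the others. Active receptors signal through RAS to the kinase ERK, and ERK in turn induces inhibitors of the pathway, among them Errfi1 (also called Mig6), which binds the receptor's kinase domain. In fibroblasts the pathway is known for driving division and migration.

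Each member had at least 2 counts in each library. Counts on genes per library ran from 66956083 to 83970210 (median 67654759) in Null control, from 63286195 to 76125320 (median 75454495) in Null etoposide, from 66749645 to 104120871 (median 74826945) in DKO control and from 45577023 to 94388705 (median 68441372) in DKO etoposide. Levels are in CPM, the counts scaled to a common library size by TMM, with factors from 0.884 to 1.09. A floor of 3 counts in a library corresponds to 0.0298 to 0.0607 CPM, and floors cover counting error only. Fold changes are log2 values from edgeR with their standard error (SE), and a gene was called where its p, adjusted over the 15220 genes tested, was under 0.05. The labels do not say whether replicates were separate cultures, so the p-values measure the spread between libraries, which may be technical. The libraries are of bulk RNA, in which fewer cells of a type and less RNA per cell cannot be told apart. Scaling matters for small changes: with library size alone in place of TMM, the median over all genes moved, in log2, by 0.17 for etoposide in Null, 0.27 for etoposide in DKO, -0.12 for DKO against Null in control, -0.02 for DKO against Null after etoposide and 0.10 for the interaction. Members whose call or sign moved with it are pointed out.

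Of the targeted genes, Tfeb RNA checked the genotype labels, while Tfe3 RNA differed little between genotypes. Tfeb was measured at 38.9, 39.2 and 42.1 CPM in Null control and at 4.60, 6.09 and 4.68 CPM in DKO control (log2 fold change -2.94, SE 0.09, adjusted p = 1.05e-14). Tfe3 RNA was still present in DKO control, at 94.1, 93.1 and 91.0 CPM against 115, 109.9 and 114 CPM in Null control (log2 fold change -0.29, SE 0.04, adjusted p = 8.68e-06), and after etoposide the genotypes did not differ past the threshold, at 68.5, 69.6 and 68.1 CPM in Null and 70.7, 71.2 and 63.4 CPM in DKO (-0.0081, adjusted p = 0.871). After etoposide Tfeb stood at 11.4, 10.2 and 10.4 CPM in Null and 1.92, 1.61 and 2.20 CPM in DKO. Of 11 fibroblast markers, the summed level was 3957.5 to 12116 CPM per library, with Vim the most abundant in both Null groups and Fn1 in DKO etoposide. That sum was higher in DKO than in Null and lower after etoposide in each genotype. Single markers did not all follow it: Vim was lower in DKO after etoposide, at 801 against 1632 CPM, and Thy1 stood at 1 to 4 counts (0.0365 CPM) in DKO control against 4.21 CPM in Null control. Epithelial markers summed to 2.02 to 5.94 CPM over 6 genes (Krt8 the most abundant in the control libraries, Cdh1 after etoposide) and endothelial markers, over 3 genes (Pecam1), to 0.0217 to 0.123 CPM in the control libraries and 0.526 to 1.39 CPM after etoposide. Among the epithelial markers Krt5 and Krt14 had at most 1 count in a control library and 55 to 71 and 27 to 45 counts in Null etoposide. The 5 macrophage markers summed to 13.4 to 14.6 CPM in Null etoposide, 3.60 to 4.52 CPM in DKO etoposide and 1.66 to 2.75 CPM in the control libraries. Cd68 made up most of that. Adgre1 was at 0 counts in the 6 control libraries, and Ptprc, at 0 to 2 counts there, stood at 0.366 CPM in Null etoposide and 0.278 CPM in DKO etoposide. The part of these markers in the members' changes was not tested.

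After etoposide most members fell in both genotypes, or 4 in Null and 6 in DKO with library size alone, and between genotypes the members went separate ways. In Null, etoposide left 1 member higher and 6 lower, or 7 of 10 called, against 79.4% of all genes tested, 42.3% higher and 37.2% lower. In DKO it left 2 higher and 8 lower, all 10 called, against 75.1% of all genes, 43.7% higher and 31.5% lower. In control cells 4 members were higher in DKO and 6 lower, all 10 called, against 66.7% of all genes, 33.3% higher and 33.4% lower. After etoposide 2 were higher in DKO and 7 lower, 9 of 10 called, against 74% of all genes, 37.5% higher and 36.6% lower. The interaction, the etoposide change in DKO minus that in Null, was called for 8 members, 3 above 0 and 5 below, against 54% of all genes, 29.6% above and 24.4% below. Most genes were called in each comparison, so that these shares of called members are no result about the members by themselves.

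The members' median log2 fold change was -0.17 for etoposide in Null and -0.49 for etoposide in DKO, beside medians of 0.07 and 0.14 over all genes tested. For DKO against Null the members' median was -0.80 in control and -0.77 after etoposide, beside -0.02 and -0.00446 over all genes. For the interaction the members' median was -0.21, beside 0.05. With library size alone, etoposide in Null left 2 members higher and 4 lower, and the calls over all genes moved to 7806 higher and 4396 lower from 6435 and 5656. Over all genes that scaling also moved etoposide in DKO to 9316 higher and 3004 lower from 6645 and 4790, and DKO against Null in control to 3977 higher and 6393 lower from 5066 and 5091. The interaction moved to 5734 above and 3055 below from 4507 and 3719. In each of the 4 comparisons between 2 groups, the members called were also those whose 3 libraries of one group lay apart from the 3 of the other: 7, 10, 10 and 9 of the 10. Of all genes tested 80.2%, 76.1%, 70.5% and 74.7% lay apart in this way, and chance gives 10%. The comparisons share libraries and are not independent of each other.

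**Figure D1:**
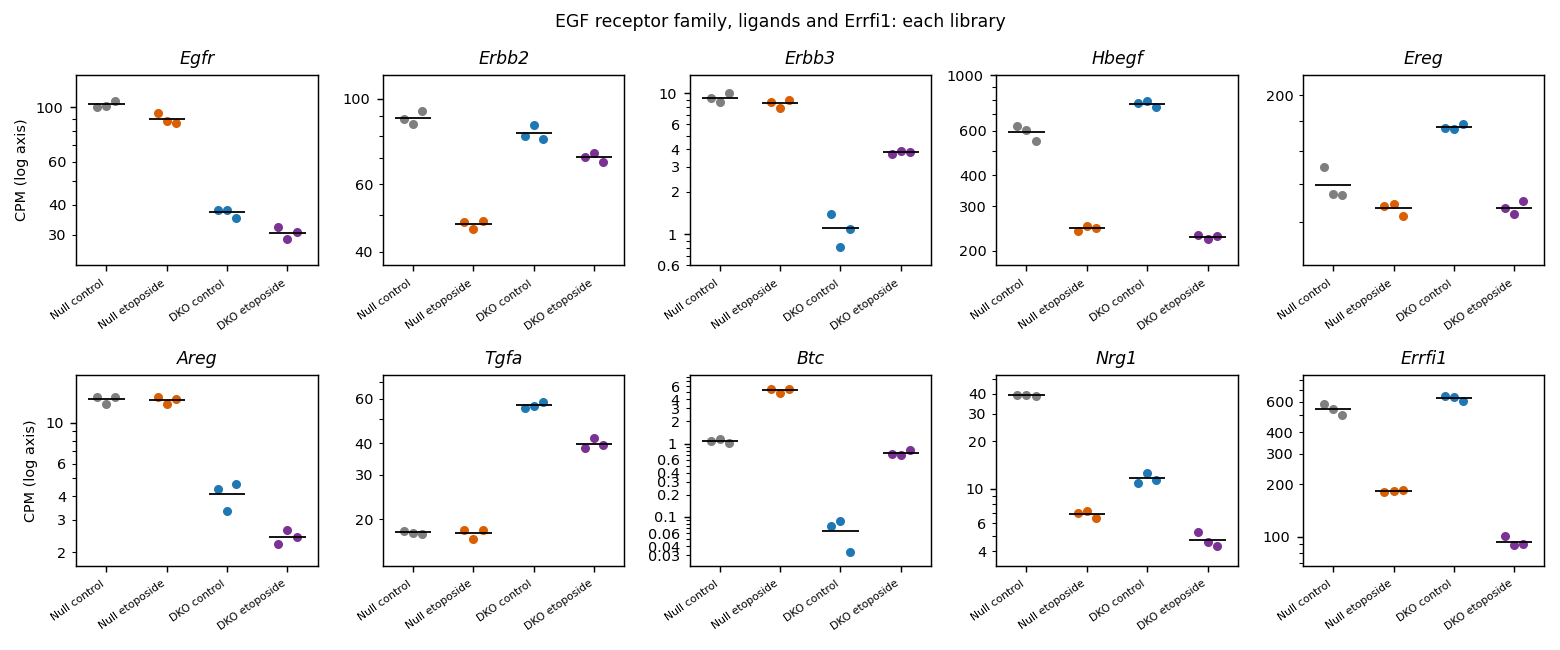
Level of each of the 10 members in each of the 12 libraries (points, CPM on a log axis) with the mean of each group (line), n = 3 libraries a group. Egfr, Erbb3, Areg, Btc and Nrg1 are lower in both DKO groups than in the Null group of the same treatment. Tgfa is higher in both DKO groups. Hbegf, Nrg1 and Errfi1 have the largest falls with etoposide in both genotypes.

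Egfr, the receptor for EGF itself and for most ligands named here, was lower in DKO MEFs with or without etoposide. It lies on chromosome 11 from 16752203 to 16918158 on the plus strand (GENCODE M21, GRCm38). It was measured at 101, 102 and 106 CPM in Null control and 94.5, 88.1 and 86.0 CPM in Null etoposide. In DKO it was measured at 37.9, 38.2 and 35.3 CPM in control and 32.3, 28.8 and 30.7 CPM after etoposide. Each DKO library lay well below each Null library. DKO control held 36.1% of the Null level (log2 fold change -1.47, SE 0.05, adjusted p = 2.45e-14) and DKO etoposide 34.1% (log2 fold change -1.55, SE 0.05, adjusted p = 1.39e-14). The etoposide change was small in both genotypes, at -0.20 (SE 0.05, adjusted p = 0.00078) in Null and -0.28 (SE 0.05, adjusted p = 8.65e-05) in DKO, and with library size alone neither was called, at -0.033 (adjusted p = 0.527) and -0.0087 (adjusted p = 0.879). Over 15 alternatives the adjusted p of Egfr ranged from 0.000157 to 0.527 in Null and from 6.5e-08 to 0.879 in DKO. The interaction of Egfr was not called (log2 difference -0.08, 95% interval -0.23 to 0.06, adjusted p = 0.344), nor with library size alone (0.024).
The stretch of 80 bases just before the Egfr start, chr11:16752123-16752202 on the plus strand (RefSeq, GRCm38.p6), is shown because Egfr is the receptor that most ligands named here bind, and nothing in it is in capitals since none of the motifs searched was found.
Egfr: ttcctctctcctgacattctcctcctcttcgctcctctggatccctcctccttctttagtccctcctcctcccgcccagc
Windows of 300 bases, 250 before and 50 after a start, were available for 6 of the 10 members (Egfr, Erbb2, Areg, Tgfa, Btc and Errfi1, the last with 2 windows) and were searched on both strands. The E-box CACGTG, which TFEB and TFE3 can bind, is in 7.15% of all 32851 promoter windows, its longer form TCACGTG in 3.77% and the AP-1 motif TGANTCA in 7.81%. TCACGTG holds CACGTG, so these overlap. None of the 3 was found in a member's window, which says only that these letters are not there.

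Erbb2 and Erbb3, which pair with each other and with Egfr, took different courses. Erbb2 (chromosome 11, 98412470 to 98437716, plus strand) was measured at 88.5, 85.8 and 92.9 CPM in Null control and 47.8, 45.9 and 48.2 CPM in Null etoposide. In DKO it was measured at 80.1, 85.5 and 78.6 CPM in control and 70.7, 72.4 and 68.6 CPM after etoposide. The Null etoposide libraries lay far below the rest. Etoposide left 53.1% of the control level in Null (log2 fold change -0.91, SE 0.04, adjusted p = 1.43e-12) and 86.6% in DKO (-0.21, SE 0.04, adjusted p = 0.000285), where library size alone turned the sign to 0.066 (adjusted p = 0.154, with a range of 1.51e-06 to 0.154 over 15 alternatives). The interaction was 0.71 (SE 0.06, adjusted p = 2.33e-08), and after etoposide Erbb2 was 1.49-fold higher in DKO than in Null. In control cells it was slightly lower in DKO (-0.13, SE 0.04, adjusted p = 0.0116), a call that was lost without Null control replicate 3 (-0.10, adjusted p = 0.0737) or without DKO control replicate 3 (-0.10, adjusted p = 0.0629), with a range of 4.04e-05 to 0.0737. Exons of Erbb2 share 9 bases with Mien1 on the other strand, and since the strand setting of the counting is not stated, counts of genes with such overlaps are uncertain.

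Erbb3, the neuregulin receptor (chromosome 10, 128567523 to 128589652, minus strand), was the receptor among the members that rose with etoposide in DKO. It was measured at 9.30, 8.62 and 9.96 CPM in Null control and 8.65, 7.87 and 8.97 CPM in Null etoposide. In DKO control it stood at 1.40, 0.815 and 1.09 CPM (65 to 93 counts) and in DKO etoposide at 3.70, 3.88 and 3.82 CPM. The Null groups overlapped, and both DKO groups lay below them and apart from each other. DKO control was 8.66-fold below Null control (log2 fold change -3.11, SE 0.14, adjusted p = 1.35e-12). Etoposide raised Erbb3 by 3.55-fold in DKO (log2 fold change 1.83, SE 0.16, adjusted p = 1.38e-08), while in Null its log2 fold change was -0.13 (adjusted p = 0.204) and with library size alone 0.035, not called in either. The 2 etoposide changes differed by 1.96 (SE 0.19, adjusted p = 1.03e-07). After etoposide Erbb3 was still 2.22-fold lower in DKO than in Null.

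Hbegf, a ligand of Egfr that stays partly on the cell surface, fell with etoposide in both genotypes and was the ligand with the highest mean CPM. It lies on chromosome 18 from 36504927 to 36515805 on the minus strand. Levels were 630.3, 603 and 545 CPM in Null control and 240.01, 249.7 and 247 CPM in Null etoposide. In DKO they were 772, 788 and 750.02 CPM in control and 232, 223 and 228 CPM after etoposide. All etoposide libraries lay far below all control libraries. The fall was 2.41-fold in Null (log2 fold change -1.27, SE 0.04, adjusted p = 2.01e-14) and 3.39-fold in DKO (-1.76, SE 0.04, adjusted p = 4.77e-16), and the interaction was -0.49 (SE 0.06, adjusted p = 2.64e-06). Control DKO cells held 1.30-fold more Hbegf RNA than Null cells (log2 fold change 0.38, SE 0.04, adjusted p = 4.47e-07). After etoposide the order was the reverse and the difference small (-0.11, SE 0.04, adjusted p = 0.0283), and that call was lost without Null etoposide replicate 2 (-0.11, adjusted p = 0.0697) or without Null etoposide replicate 3 (-0.10, adjusted p = 0.0707), with a range of 0.000134 to 0.0707 over 15 alternatives.

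Ereg and Tgfa, both ligands of Egfr, were higher in DKO control than in Null control. Ereg (epiregulin; chromosome 5, 91074622 to 91093646, plus strand) was measured at 149.8, 134 and 134 CPM in Null control, 128, 129 and 123 CPM in Null etoposide, 175, 174 and 178 CPM in DKO control and 127, 124 and 130.3 CPM in DKO etoposide. The DKO control libraries stood above all others. The genotypes differed by 0.34 in log2 fold change in control (SE 0.04, adjusted p = 1.25e-06) and lay at the same level after etoposide within the spread of the libraries (0.0036, 95% interval -0.08 to 0.09, adjusted p = 0.941; -0.012 with library size alone, not called). Etoposide changed Ereg by -0.47 in DKO (SE 0.04, adjusted p = 1.57e-08). In Null its change was -0.14 (SE 0.04, adjusted p = 0.00579), which was not called with the stricter filter (-0.05, adjusted p = 0.244) and turned sign with library size alone (0.029, adjusted p = 0.537), with a range of 0.00104 to 0.537 over 15 alternatives. The interaction was -0.33 (SE 0.06, adjusted p = 0.000119).

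Tgfa (transforming growth factor alpha; chromosome 6, 86195223 to 86275719, plus strand) stood higher over Null in DKO than any other member did. It was measured at 17.9, 17.6 and 17.5 CPM in Null control and 18.1, 16.7 and 18.1 CPM in Null etoposide. In DKO it was measured at 55.1, 56.0 and 58.5 CPM in control and 38.2, 41.9 and 39.2 CPM after etoposide. The Null groups overlapped and every DKO library lay above them. DKO exceeded Null by 3.19-fold in control (log2 fold change 1.68, SE 0.05, adjusted p = 5.11e-15) and by 2.26-fold after etoposide (1.18, SE 0.05, adjusted p = 6.16e-13). Etoposide lowered Tgfa in DKO (-0.51, SE 0.05, adjusted p = 2.57e-08), whereas in Null the log2 fold change was -0.01 (adjusted p = 0.907) and with library size alone 0.16, which was called (adjusted p = 0.00993, with a range of 0.00993 to 0.995 over 15 alternatives). The interaction was -0.50 (SE 0.07, adjusted p = 1.03e-05). Exons of Ereg share 141 bases with Gm19610 and those of Tgfa share 118 bases with Gm43917, both on the other strand.

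Btc (betacellulin, a ligand of Egfr and Erbb4) was the member that rose with etoposide in both genotypes. It lies on chromosome 5 from 91357261 to 91402994 on the minus strand. It was measured at 1.08, 1.15 and 1.02 CPM in Null control and 5.52, 4.92 and 5.56 CPM in Null etoposide. In DKO control it stood at 5, 8 and 2 counts (0.0752, 0.0870 and 0.0336 CPM) and in DKO etoposide at 36, 51 and 81 counts (0.728, 0.696 and 0.804 CPM). The 4 groups did not overlap, and DKO etoposide lay below Null control. The rise was 4.90-fold in Null (log2 fold change 2.29, SE 0.13, adjusted p = 1.75e-11) and 10.7-fold in DKO from those few counts (3.42, 95% interval 2.62 to 4.21, adjusted p = 2.38e-07). DKO was lower by 15.4-fold in control (log2 fold change -3.95, 95% interval -4.68 to -3.21, adjusted p = 1.22e-08) and by 7.07-fold after etoposide (-2.82, SE 0.14, adjusted p = 3.75e-12). The interaction of Btc, 1.13 (SE 0.48, 95% interval 0.12 to 2.13, not adjusted), missed the threshold in edgeR (adjusted p = 0.0546). It passed with DESeq2 (1.09, adjusted p = 0.0337), with library size alone (1.23, adjusted p = 0.0331), with the stricter filter (1.07, adjusted p = 0.0463) and with a legacy version of edgeR's fit chosen after seeing the data (1.12, adjusted p = 0.0137), with adjusted p from 0.0137 to 0.174 over 20 alternatives.

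Nrg1 (neuregulin 1, the ligand of Erbb3 and Erbb4) fell with etoposide in both genotypes and was lower in DKO. Its gene spans 1069 kb of chromosome 8 from 31814551 to 32884029 on the minus strand. It was measured at 39.5, 39.1 and 38.7 CPM in Null control and 6.96, 7.24 and 6.49 CPM in Null etoposide. In DKO it was measured at 10.9, 12.6 and 11.3 CPM in control and 5.32, 4.53 and 4.32 CPM after etoposide. Null control stood far above the other groups, none of which overlapped. Etoposide lowered Nrg1 by 5.66-fold in Null (log2 fold change -2.50, SE 0.07, adjusted p = 1.29e-15) and by 2.51-fold in DKO (-1.33, SE 0.08, adjusted p = 1.33e-10), with an interaction of 1.17 (SE 0.11, adjusted p = 9.48e-08). DKO was 3.35-fold below Null in control (-1.74, SE 0.07, adjusted p = 1.51e-13) and 1.49-fold below after etoposide (-0.57, SE 0.09, adjusted p = 1.38e-05). The exons of Nrg1 share 482 bases, 4.66% of their length, with Gm26578 on the other strand.

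After etoposide genes that span at least 100 kb had lower median changes than shorter genes, and Nrg1 and Egfr are the members of that span. Of 14611 tested genes with an annotated span, the 1967 of at least 100 kb had a median log2 fold change of -0.37 in Null and -0.25 in DKO. The 3859 genes under 10 kb had medians of 0.20 and 0.23, and the 8785 between had 0.05 and 0.13. In Null 55.9% of the long genes were called lower and 31.1% higher, against 24.9% and 46.5% of those under 10 kb, and in DKO 52.8% and 31% against 20.4% and 46.7%. With library size alone the long genes had medians of -0.20 in Null and 0.02 in DKO, so in DKO the sign depended on the scaling, and the genes under 10 kb had 0.37 and 0.51. With that scaling 41.7% of the long genes were called lower and 40.6% higher in DKO, against 12.6% and 63.7% of those under 10 kb. In Null these were 50.5% and 35.1% against 17.7% and 57.5%. Egfr, with a span of 166 kb, changed by -0.20 and -0.28. These limits of span were chosen after seeing the data, and the part of span in the change of Nrg1 was not tested.

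Areg (amphiregulin, a ligand of Egfr) was lower in DKO and fell further there with etoposide. It lies on chromosome 5 from 91139599 to 91148432 on the plus strand, in a row of EGF ligand genes: Epgn, Ereg, Areg and Btc follow each other with gaps of 39.4, 46.0 and 209 kb and 0 other coding genes between. Areg was measured at 13.7, 12.6 and 13.7 CPM in Null control and 13.8, 12.6 and 13.4 CPM in Null etoposide. In DKO it was measured at 4.41, 3.34 and 4.66 CPM in control and 2.23, 2.64 and 2.43 CPM after etoposide. The Null groups overlapped and the DKO groups lay below them without overlap. DKO held 30.4% of the Null level in control (log2 fold change -1.72, SE 0.10, adjusted p = 6.6e-11) and 18.5% after etoposide (-2.43, SE 0.11, adjusted p = 1.31e-12). The etoposide change was -0.73 in DKO (SE 0.13, adjusted p = 8.77e-05) and -0.01 in Null (95% interval -0.19 to 0.17, adjusted p = 0.929; 0.16 with library size alone, not called), with an interaction of -0.72 (SE 0.16, adjusted p = 0.000802). The neighbours in the row did not move as one: in DKO control Areg and Btc were lower than in Null and Ereg was higher.
Areg and Errfi1 are the members in whose windows a cyclic AMP response element (CRE, TGACGTCA) and a TATA motif (TATAAA) were found. Both motifs were added after the sequences were read. CRE is in 1.79% and TATAAA in 13.6% of all 32851 windows, and they do not overlap each other. The 80 bases before each start are shown to set the motifs, in capitals, side by side: chr5:91139519-91139598 for Areg and chr4:150854990-150855069 for the second window of Errfi1, both on the plus strand (RefSeq, GRCm38.p6).
Areg: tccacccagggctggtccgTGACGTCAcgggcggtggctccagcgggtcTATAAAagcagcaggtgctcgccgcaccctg
Errfi1: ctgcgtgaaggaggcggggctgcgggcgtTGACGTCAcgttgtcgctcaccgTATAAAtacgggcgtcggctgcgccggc
Counted from the start, the CRE lies at -61 to -54 in Areg and -51 to -44 in Errfi1, and TATAAA at -31 to -26 and -28 to -23. Neither was found in the windows of Egfr, Erbb2, Tgfa or Btc or in the first window of Errfi1. Erbb3, Hbegf, Ereg and Nrg1 had no window. A match of letters is a description and not a site.

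Errfi1, the inhibitor that shares the CRE and TATA letters with Areg, fell with etoposide in both genotypes and more in DKO. Its gene lies on chromosome 4 from 150853919 to 150868892 on the plus strand. Levels were 585, 541 and 501 CPM in Null control and 182, 183 and 185 CPM in Null etoposide. In DKO they were 647, 638 and 607 CPM in control and 100.2, 89.8 and 90.8 CPM after etoposide. The groups did not overlap, with DKO highest in control and lowest after etoposide. The fall was 2.96-fold in Null (log2 fold change -1.57, SE 0.05, adjusted p = 8.87e-15) and 6.75-fold in DKO (-2.75, SE 0.05, adjusted p = 1.68e-17), and the interaction was -1.19 (SE 0.07, adjusted p = 2.74e-10). After etoposide DKO held 51.1% of the Null level (-0.97, SE 0.05, adjusted p = 1.22e-11). In control cells Errfi1 was higher in DKO by 0.22 (SE 0.05, adjusted p = 0.000796), which library size alone reduced to 0.097 (adjusted p = 0.101, with a range of 1.81e-05 to 0.101 over 15 alternatives). Unlike Errfi1, Areg did not change past the threshold with etoposide in Null.

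**Figure D2:**
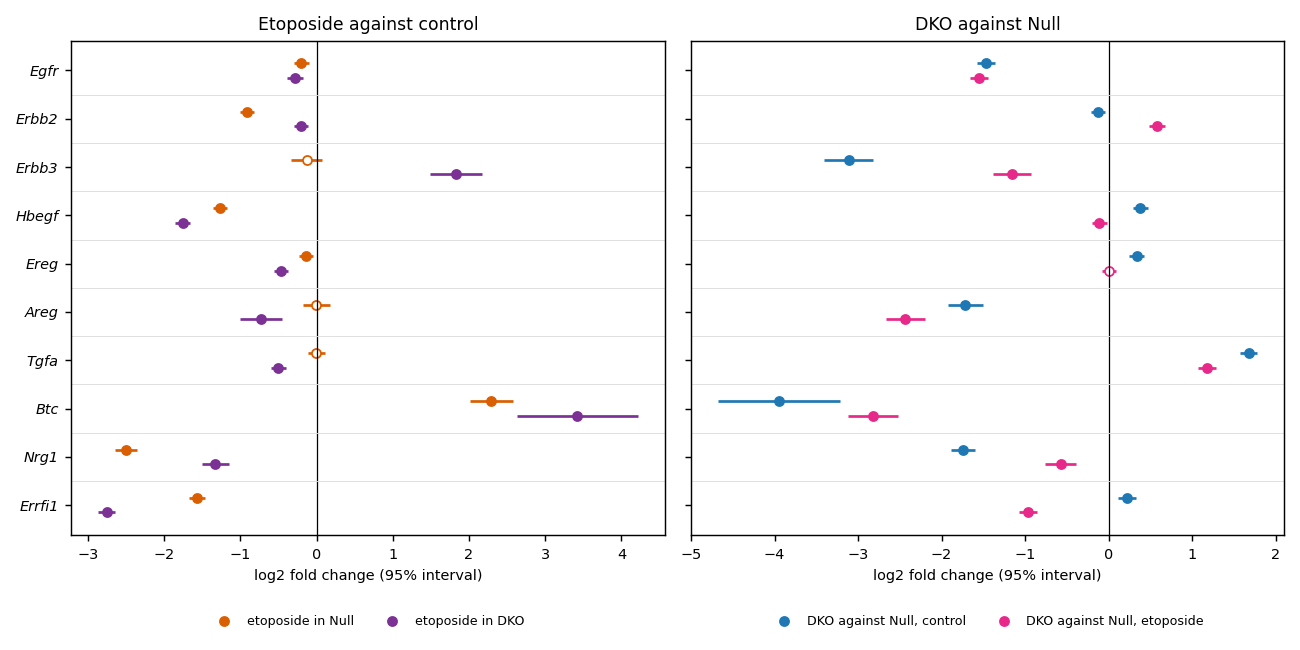
Log2 fold change of each member with its 95% interval from edgeR in the 4 comparisons between 2 groups, n = 3 libraries a group, with filled symbols where the adjusted p is under 0.05 and open symbols elsewhere. The lowest etoposide changes are those of Nrg1 in Null (-2.50) and Errfi1 in DKO (-2.75) and the highest those of Btc (2.29 and 3.42), while with library size alone the small changes of Ereg and Tgfa in Null and of Erbb2 in DKO turn sign and those of Egfr are not called.

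The members differed in how the genotypes answered etoposide. The called interactions above 0 were those of Erbb3, Nrg1 and Erbb2, at 1.96, 1.17 and 0.71. Errfi1, Areg, Tgfa, Hbegf and Ereg lay on the other side, at -1.19, -0.72, -0.50, -0.49 and -0.33. Egfr (-0.08) did not pass the threshold, nor did Btc (1.13), which is also above 0 and passed in 4 alternatives. Nrg1 binds Erbb3 and Erbb3 pairs with Erbb2, while the called members below 0 are ligands of Egfr and the inhibitor Errfi1. That division was seen only after the values were, was not tested, and Btc, a ligand of Egfr above 0, breaks it. With library size alone the same signs were found for these 8 and Btc was called as well.

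Compared per length, by CPM divided by the kilobases of merged exons, Errfi1 and Hbegf were the most abundant members. In Null control the order of CPM per kb was Errfi1 (151), Hbegf (123), Ereg (33.7), Erbb2 (17.1), Areg (10.97), Egfr (9.09), Nrg1 (3.78), Tgfa (2.73), Erbb3 (1.55) and Btc (0.240), and none of these neighbours overlapped. In Null etoposide Errfi1 (51.1) and Hbegf (50.8) overlapped, Ereg followed (30.7), and Nrg1 was last (0.666). In DKO control the first 4 were the same as in Null control, Tgfa (8.71) came next, and Areg (3.40) and Egfr (3.28) overlapped. In DKO etoposide Hbegf (47.0) and Ereg (30.7) stood above Errfi1 (26.1), and Btc was last (0.164). The order depends on the length used: with the longest annotated transcript, Hbegf came first in each group and 12 of 40 ranks moved.

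Among the 6 ligands, Hbegf RNA made up most of the summed CPM per kb in all groups, and etoposide shifted the mix toward Ereg. The ligand sum was 174 ± 10.9 CPM per kb (SD, n = 3) in Null control and 96.9 ± 0.657 in Null etoposide. It was 215 ± 2.78 in DKO control and 86.5 ± 1.08 in DKO etoposide. The share of Hbegf was 70.4% in Null control and 74.0% in DKO control, and 52.4% and 54.4% after etoposide. Ereg took 19.4% and 19.8% in control and 31.6% and 35.5% after etoposide. Its own mean was not higher after etoposide, at 30.7 CPM per kb in both genotypes against 33.7 in Null control and 42.6 in DKO control. Hbegf stood at 123 and 159 CPM per kb in control and 50.8 and 47.0 after etoposide. The genotypes parted in the smaller shares: Areg held 11.3% in Null etoposide and 2.31% in DKO etoposide, and Tgfa 2.80% and 7.09%. These shares were also lower in control, at 6.32% and 1.58% for Areg and 1.57% and 4.05% for Tgfa. With the longest annotated transcript as the length, the ligand sums were 261, 133, 327 and 121 CPM per kb in the same order of groups, and Ereg took 12.9% and 13.0% in control and 23.1% and 25.4% after etoposide, so the sizes depend on the length used and the shift toward Ereg was seen with both. These shares are descriptions over 3 libraries each and were not tested.

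Of the summed receptor CPM per kb, Erbb2 was the largest share in all groups. Its share was 61.6% in Null control, 49.4% in Null etoposide, 81.9% in DKO control and 80.2% in DKO etoposide. Egfr held 32.8% and 43.0% in the Null groups and 17.2% and 16.0% in the DKO groups. Erbb3 held 5.57% and 7.68% in Null, and 0.964% in DKO control against 3.74% in DKO etoposide. The receptor mix thus leaned to Erbb2 in DKO, with or without etoposide. In control the Erbb2 level itself was not higher in DKO, at 15.6 CPM per kb against 17.1 in Null. Egfr stood at 3.28 against 9.09 there. After etoposide Erbb2 stood at 13.5 in DKO against 9.08 in Null, and Egfr at 2.70 against 7.91. With the longest annotated transcript the Erbb2 shares were 60.4%, 48.1%, 81.0% and 79.5% in the same order of groups. With that length the levels of Erbb2 and Egfr overlapped in Null etoposide.

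**Figure D3:**
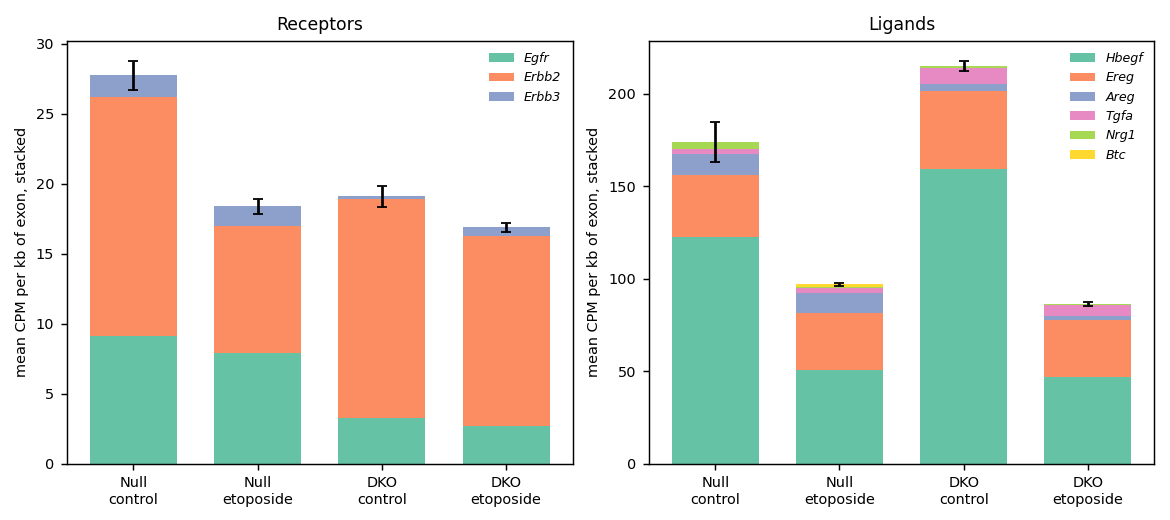
Mean CPM per kb of merged exons in each group, stacked by gene, for the 6 ligands and for the 3 receptors, with the SD of the sum over 3 libraries as the error bar. The ligand sum is lower after etoposide, 96.9 against 174 in Null and 86.5 against 215 in DKO, and the Egfr part of the receptor sum is smaller in DKO.

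Of the receptor and ligands of the family outside the 10 members, Nrg2 had the highest mean CPM in the Null groups, Epgn in DKO control and Egf in DKO etoposide. In DKO control the libraries of Epgn (0.272 to 0.316 CPM) lay within the range of Egf (0.151 to 0.376 CPM). Erbb4, the other neuregulin receptor, had 0 counts in the 6 control libraries, 1, 2 and 2 counts in Null etoposide and 13, 23 and 21 counts in DKO etoposide. Its level in DKO etoposide was at least 6.14-fold higher than in DKO control, against the floor of 3 counts a library. Against Null etoposide it was at least 6.73-fold higher by the same floor. Nrg2, another neuregulin, stood at 3.00 ± 0.715 CPM in Null control (SD, n = 3) and at 0, 2 and 3 counts in DKO control, at least 70.3-fold lower against the floor. The log2 fold change of -6.94 was -7.72 without DKO control replicate 3. After etoposide Nrg2 stood at 4.26 ± 0.758 CPM in Null and at 3, 6 and 23 counts in DKO. Its etoposide change in Null (0.49, adjusted p = 0.0118) was not called with limma-trend or the legacy fit, nor without Null control replicate 3 (0.31) or Null etoposide replicate 1 (0.39). The rise of Nrg2 in DKO (2.55, adjusted p = 0.0436) was lost without DKO control replicate 1 (2.03) or 2 (2.47) or DKO etoposide replicate 3 (1.59), and was 3.34 without DKO control replicate 3. Egf itself was lower in DKO control, at 0.255 against 0.961 CPM (log2 fold change -1.90, adjusted p = 3.84e-05), and rose with etoposide in DKO (1.55, adjusted p = 0.000446). Its exons share 607 bases (5.38%) with Gm42697 and 500 bases (4.43%) with 6330410L21Rik, both on the other strand. Epgn (epigen) had at most 25 counts in a library, with 16, 0 and 20 in Null control and 0, 5 and 1 in Null etoposide, which overlap (-2.65, adjusted p = 0.0138). This call and that of Epgn for DKO against Null after etoposide (2.65) were lost without Null etoposide replicate 1, the first also without Null control replicate 3 and the second without DKO etoposide replicate 3. Without Null etoposide replicate 2 the values were -4.37 and 4.35. Nrg3 and Nrg4, with at most 2 and 18, were not tested. Of the 4 tested, 2 passed for etoposide in Null (1 higher, 1 lower) but neither with limma-trend, 3 for etoposide in DKO (all higher), 2 for DKO against Null in control (both lower) and 3 after etoposide (2 higher, 1 lower). In the same order 79.4%, 75.1%, 66.7% and 74% of all genes were called.

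Genes that release the ligands from the membrane included Rhbdf2, which was nearly absent in DKO. Rhbdf2 (iRhom2, the partner that carries the protease Adam17 to the surface) was measured at 17.6, 17.3 and 20.6 CPM in Null control and at 5 to 11 counts (0.115 CPM) in DKO control. Its log2 fold change was -7.31 in control (SE 0.17, adjusted p = 2.31e-16) and -6.96 after etoposide (SE 0.16, adjusted p = 2.29e-16). Rhbdf1, also on this list, was not lower in DKO. It stood at 97.1 CPM in DKO and 90.2 CPM in Null in control, and at 65.7 and 47.3 CPM after etoposide. Adam17 stood at 58.3 CPM in DKO and 71.1 CPM in Null in control, and at 60.9 and 64.2 CPM after etoposide. The protease Adam12 was the largest rise in DKO, at 2.47 in control and 2.52 after etoposide. Timp3, an inhibitor of Adam17, was the largest fall with etoposide, at -1.57 in Null and -2.05 in DKO, and the rhomboid protease Rhbdl2 the largest rise, at 3.18 in Null and 0.66 in DKO, the latter not called without DKO control replicate 1 or 3 or DKO etoposide replicate 1. Timp3 was higher in DKO than in Null, at 3023 against 810 CPM in control and 729 against 272 CPM after etoposide. Of the 12 release genes, all tested, etoposide left 3 higher and 8 lower in Null (median log2 fold change -0.20) and 2 higher and 7 lower in DKO (-0.27). With library size alone these splits were 4 and 5 in Null and 4 and 5 in DKO. Of all genes tested, 79.4% were called in Null, 42.3% higher and 37.2% lower. In DKO 75.1% were called, 43.7% higher and 31.5% lower. In DKO against Null 5 were higher and 5 lower in control, and 5 higher and 6 lower after etoposide (medians -0.05 and -0.16). Between genotypes 66.7% of all genes were called in control, 33.3% higher and 33.4% lower. After etoposide 74% were called, 37.5% higher and 36.6% lower.

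Genes for receptor turnover and signalling limits included more called lower than higher with etoposide. Of 12 tested out of 13, 1 was higher and 9 lower in Null (median log2 fold change -0.78) and 2 higher and 10 lower in DKO (-0.71), where of all genes 42.3% were higher and 37.2% lower in Null and 43.7% and 31.5% in DKO. The list was not tested as a set. The endocytosis adaptor Sh3kbp1 had the largest fall in Null (-1.59) and the ubiquitin ligase Cblb in DKO (-1.48). Rnf41, a ubiquitin ligase known for Erbb3, had the largest rise in Null (0.20), and the phosphatase Ptprj in DKO (1.38). Between genotypes 4 were higher and 4 lower in control and again after etoposide, with medians of -0.06 and -0.02. The shares of all genes were 33.3% higher and 33.4% lower in control, and 37.5% and 36.6% after etoposide. With library size alone the control split was 4 higher and 7 lower, and with DESeq2 or its size factors in edgeR the split after etoposide was 2 higher and 6 lower. Ptprj, at 85.1 ± 6.98 CPM in Null control and 12.6 ± 1.44 in DKO control (SD, n = 3 each), had the largest fall in DKO in control (-2.75) and after etoposide (-1.30). Like Erbb3, Ptprj was low in DKO control and rose there with etoposide. The largest rises in DKO were those of Cblb in control (0.82) and Cbl after etoposide (0.60).

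Sprouty and Spred genes, which restrain signalling to ERK as Errfi1 restrains the receptor, were also called lower more often than higher. Of 7, all tested, etoposide left 1 higher and 6 lower in Null (median log2 fold change -0.98) and 1 higher and 5 lower in DKO (-0.62), beside 37.2% and 31.5% lower of all genes. This list was not tested as a set either. DKO against Null gave 2 higher and 5 lower in control (-0.90), which was 1 and 5 with library size alone, and 1 higher and 5 lower after etoposide (-0.98). The shares of all genes were 33.3% higher and 33.4% lower in control, and 37.5% and 36.6% after etoposide. Spry4 fell most with etoposide in Null (-2.74) and Spry2 in DKO (-1.93), and Spry1 rose in both (2.67 and 2.24). In DKO control Spry1 had 0, 12 and 2 counts, and without replicate 2 there its rise in DKO was 4.11. Spry3 stood at 1 or 2 counts a library in DKO control against 4.29 CPM in Null control, at least 101-fold lower against the floor, and after etoposide, from 4, 6 and 1 counts in DKO, its log2 fold change was -4.30, or -3.60 without DKO etoposide replicate 3. With DKO control set to the floor for Spry3 the list medians were the same, -0.62 for etoposide in DKO and -0.90 for DKO against Null in control. Spred1 was the largest rise in DKO, at 0.25 in control and 0.64 after etoposide.

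In the chain from receptor to ERK, 17 genes were tested and their changes were small beside those of Nrg1 or Errfi1. Etoposide left 3 higher and 12 lower in Null (median log2 fold change -0.50) and 4 higher and 12 lower in DKO (-0.24), and with library size alone 5 and 10 in Null and 7 and 5 in DKO, while DESeq2 or its size factors gave 5 and 11 in Null. Of all genes tested, 42.3% were higher and 37.2% lower in Null, and 43.7% and 31.5% in DKO. Hras rose most (0.85 in Null, 0.36 in DKO). DKO against Null gave 10 higher and 6 lower in control (0.12), which was 5 and 7 with library size alone, and 10 higher and 3 lower after etoposide (0.21). The shares of all genes were 33.3% higher and 33.4% lower in control, and 37.5% and 36.6% after etoposide. This list was not tested as a set. Map2k1 had the largest rise in DKO in both (0.69 and 0.81), Nras the largest fall in control (-0.44) and Gab1 after etoposide (-0.93).

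Of 10 genes known to follow ERK activity, 2 of them Sprouty genes already counted, 9 were lower and 1 higher in DKO after etoposide, with a median log2 fold change of -1.54, where 36.6% of all genes were lower. In control 7 were lower in DKO and 2 higher (-1.12), or 8 and 1 with library size alone, where 33.4% of all genes were lower and 33.3% higher. Epha4 had the largest fall after etoposide (-4.28) and Dusp4 in control (-7.37), from 19.9 ± 2.68 CPM in Null to 0.114 ± 0.0332 CPM in DKO (SD, n = 3 each). Phlda1 was the largest rise in control (0.69) and Etv5 after etoposide (0.50). With etoposide 3 were higher and 6 lower in Null (-0.34), led by Dusp6 (0.91) and Spry4 (-2.74). In DKO 5 were higher and 4 lower (0.34), led by Dusp4 (2.93) and Phlda1 (-2.53), and 6 and 3 with library size alone. Of all genes tested, 42.3% were higher and 37.2% lower in Null, and 43.7% and 31.5% in DKO. ERK activity itself was not measured.

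For the interaction, the list counts above and below 0 were 3 and 4 for release, 5 and 5 for turnover, 3 and 1 for Sprouty and Spred, 10 and 3 for the chain to ERK (9 and 5 with DESeq2) and 5 and 4 for genes that follow ERK. Their median log2 differences were 0.06, 0.02, 0.26, 0.29 and 0.12, beside -0.21 for the members and 0.05 for all genes. Of all genes tested, 54% were called for the interaction, 29.6% above 0 and 24.4% below. Of the other receptor and ligands Egf was called, with an etoposide change 2.82-fold higher in DKO than in Null (adjusted p = 0.00471). Others were called in single alternatives. These were Nrg2 with DESeq2 (2.01, adjusted p = 0.0192), Erbb4 with limma-trend (2.56, adjusted p = 0.00335) and Epgn without Null control replicate 2 (2.42, adjusted p = 0.0357).

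**Figure D4:**
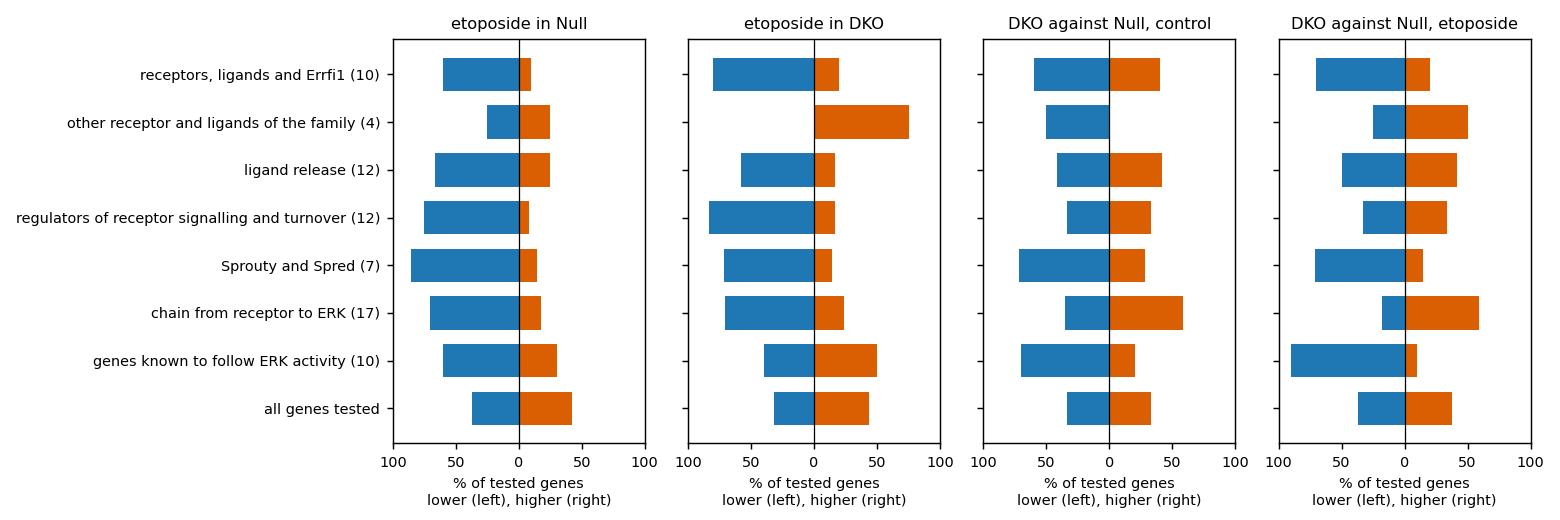
Percent of tested genes called lower (bars to the left) and higher (bars to the right) by edgeR at an adjusted p under 0.05 in the 4 comparisons between 2 groups, for the members, the 6 pathway lists (number tested in parentheses) and all genes tested. Of the genes known to follow ERK activity 9 of 10 are lower in DKO after etoposide, against 36.6% of all genes, and with library size alone the splits of the release genes and of the chain to ERK for etoposide against control in each genotype, and that of the chain for DKO against Null in control, move toward equal parts or change side.

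Eldr is a non-coding gene on the strand opposite to Egfr, and its near end lies 17.0 kb beyond the end of Egfr. Unlike Egfr, Eldr rose with etoposide in both genotypes, and with TMM only its genotype difference after etoposide was called in the direction of Egfr. Levels of Eldr were 4.45, 3.63 and 4.14 CPM in Null control and 9.43, 9.72 and 8.62 CPM in Null etoposide. In DKO it was measured at 3.69, 3.68 and 3.59 CPM in control and 6.09, 5.75 and 6.25 CPM after etoposide. Etoposide raised it in both genotypes, by 1.18 (SE 0.09, adjusted p = 1.63e-09) in Null and 0.72 (SE 0.10, adjusted p = 4.21e-06) in DKO, where Egfr was slightly lower or, with library size alone, not called. In control cells, where Egfr was 2.77-fold lower in DKO, Eldr differed by -0.16 (adjusted p = 0.192), and with library size alone it was called (-0.28). After etoposide Eldr was lower in DKO (-0.62, SE 0.08, adjusted p = 3.58e-06), in the direction of Egfr.

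The genes whose levels ran most like those of Egfr over the 12 libraries were Sec24c (Pearson r = 0.997), Ankrd1 (0.996), Aldh3b1 (0.995), Msln (0.994) and Tinagl1 (0.994), of 15219 compared by log2 CPM. For Hbegf they were Hmgcs1 (0.998), Cald1 (0.998), Ccrn4l (0.997), Myo1e (0.997) and Id3 (0.997). The libraries fall into 4 groups that share lines and treatment, so these values describe a common pattern of the group means.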

How the data were processed

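RNA-Seq was measured in 12 MEF libraries. The authors deposited raw counts per gene, whole numbers with no normalization. The labels name HISAT2, featureCounts and mm10, whereas the study's methods name HTSeq on the GENCODE comprehensive annotation, and the table ends in 5 summary lines of the kind HTSeq writes. These were left out of the library sizes. Of the summed lines 53.4 to 63.1% were on genes, 20.2 to 27.3% on no feature and 15.9 to 20.5% not unique. Groups and replicate numbers came from the sample titles.

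The tests were run with edgeR 4.0.16 in R 4.3.3: filterByExpr on the 4 groups, TMM, glmQLFit on 12 libraries with a group factor, and glmQLFTest for 5 comparisons, with Benjamini-Hochberg adjustment over the 15220 genes tested and a threshold of 0.05. SE is the size of the log2 fold change divided by the square root of F. The 95% intervals are not adjusted. An exact permutation test of 3 against 3 libraries cannot go below 0.1, so p-values come from the model.

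The members, Tfeb and Tfe3, the other receptor and ligands of the family and Eldr are named. Of each other pathway list, the largest rise and fall in each comparison between 2 groups is named among called genes whose mean CPM is 1 or more, and for Egfr and the ligand with the highest mean CPM the 5 genes most correlated in log2 CPM (prior count 2). Not every gene this rule chose is reported. Levels are given for a few of them, picked after their values were seen. The levels of Rhbdf1 and Adam17, which the rule did not choose, were also added after the values were seen. The members and lists were chosen with earlier results of these data known. Lists were not tested as sets.

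Gene positions and lengths are from GENCODE M21, and promoter windows from RefSeq (GRCm38.p6). Alternatives were DESeq2 1.42.0, limma-trend (limma 3.58.1), DESeq2's size factors in edgeR, library size alone, no filter, a stricter filter (a mean CPM of 1 or more), a replicate block, the 6 libraries of a comparison alone, each library left out in turn and, chosen after seeing the data, the legacy quasi-likelihood fit.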

Additional observations from a re-analysis of the deposited data

Results flagged for a closer look

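The etoposide response differed between Null and DKO by the interaction test for 8 of the 10 members, against 54% of all genes tested. The log2 fold change in DKO minus that in Null was 0.71 for Erbb2, 1.96 for Erbb3 and 1.17 for Nrg1. It was -0.49 for Hbegf, -0.72 for Areg, -0.33 for Ereg, -0.50 for Tgfa and -1.19 for Errfi1. Groups of 3 libraries are too small for a test of single libraries.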

How the results depend on the processing

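Of 800 fold changes of members recomputed, 765 kept their sign and their side of the threshold, 20 changed sign but were called in neither fit, 8 were no longer called, 4 (all the interaction of Btc) became called and 3 changed sign where at least 1 fit called them. Those 3 did so with library size alone: Ereg (0.029) and Tgfa (0.16, called) for etoposide in Null and Erbb2 (0.066) for etoposide in DKO. The cause was not tested. Without 1 library at a time, members called numbered 7 for etoposide in Null, 10 for etoposide in DKO, 9 to 10 for DKO against Null in control, 8 to 9 after etoposide and 8 for the interaction. With a replicate block they numbered 7, 10, 10, 9 and 8. Whether the replicate numbers pair libraries is open: residuals correlated at -0.0320 to 0.0429 over 18 pairs with the same number and at -0.0471 to 0.0476 over 36 with different numbers, and 9 of 12 libraries were on average closest to those of their own number. Of 150 total calls per pathway list recomputed, 147 stayed within 1.5 times and 3, all of the other receptor and ligands, did not. The splits into higher and lower moved more: 103 of 150 were unchanged, and in 22, 9 of them with library size alone, 1 of the numbers or both moved past 1.5 times. Depth limits Btc in DKO control (2 to 8 counts) and Erbb4, Epgn, Nrg3 and Nrg4. The 12 moved ranks came from transcript length.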
